A study of Mus musculus with 20 samples.

Results

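Endothelial cells line blood vessels, and the endocardium is the endothelium that lines the heart. The genes described here are 10 genes by which such cells are recognised: Pecam1, Cdh5, Cldn5, Emcn, Eng, Npr3, Esm1, Sox17, Sox18 and Tal1. They were taken by symbol from a table of 33495 genes, in which each has 1 row, and all 10 were expressed well enough to be tested in every comparison. The table holds 20 RNA-seq libraries of embryonic mouse heart in which floxed Kmt2d, a histone H3 lysine 4 methyltransferase gene, was deleted by 1 of 3 Cre lines.

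Mesp1Cre hearts were whole hearts labelled E9.0 (4 mutant and 4 control libraries). Mef2cAHF::Cre samples were right ventricles with outflow tracts at E11.5 (3 and 3), and Tnnt2::Cre samples were whole hearts at E11.5 (3 and 3). Mutants were Cre; Kmt2d fl/fl; mTmG/+ and controls Cre; Kmt2d fl/+; mTmG/+ on a C57BL/6 background. Both groups therefore carried Cre and the mTmG membrane reporter, and each comparison is between deletion of 2 floxed alleles and of 1. Mesp1Cre is active in early mesoderm, whose descendants include endocardium and vessels as well as myocardium. Mef2cAHF::Cre is active in anterior heart field precursors, and the dissected tissue also holds cells of other origins. Tnnt2::Cre is active in cardiomyocytes, a different cell type from the one that these genes mark. Nothing in the labels says that each library came from a separate embryo, so p-values measure the spread between these libraries.

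For Mef2cAHF::Cre the deposited labels disagree. The sample titles and genotypes call 3 libraries mutant that the column names of the table call wild type, and the reverse for the other 3. The titles are followed here ("labelled mutant", "labelled control"), and the column names would turn every sign for this line while leaving its size and p as they are. The targeted gene, listed as Mll2, was measured over the whole gene and not over the floxed exons. It was 0.21 ± 0.07 (SE) lower on the log2 scale in Mesp1Cre mutants (edgeR adjusted p 0.0764) and 0.35 ± 0.12 lower in Tnnt2::Cre mutants (edgeR adjusted p 0.327). In Mef2cAHF::Cre it ran from 187 to 194 CPM (counts scaled to a common library total) in the libraries labelled mutant and from 146 to 156 CPM in those labelled control, a log2 difference of 0.32 ± 0.06 by the sample titles (edgeR adjusted p 0.0359). The level of the targeted gene in this line thus goes against the sample titles. Directions in this line follow the titles unless the column names are mentioned, and each of them turns under the column names.

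Endothelial cells hold together through junctions made of VE-cadherin (Cdh5), PECAM1 and claudin 5, and carry sialomucins such as endomucin (Emcn) on their surface. Endoglin (Eng) is a co-receptor for BMP ligands of the TGF-beta family, Npr3 is the natriuretic peptide clearance receptor that marks endocardium in the embryonic heart, and Esm1 is a secreted proteoglycan found at the sprouting front of vessels. Sox17 and Sox18 are SOXF transcription factors of endothelium, and Tal1 is a basic helix-loop-helix factor needed for both blood and endothelium and abundant in red cell and megakaryocyte precursors. Libraries held 21727258 to 45341870 counted reads. The summed level of 10 cardiomyocyte marker genes was between 15000 and 31400 CPM in every library.

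The sequence immediately before the annotated start is shown for the 4 genes that passed the test in any line, since these are the members that moved. Each is 250 bases of mm9, written 5′ to 3′ on the strand of the gene, ending at the base before the start. Capitals mark AGGAA, 1 form of the core that ETS factors bind, and ACAAT, 1 form of the core that SOX factors bind, on either strand. Other forms of these cores were not marked or counted. These windows lie at chr15:11835430-11835679 (minus strand) for Npr3, chr1:4487436-4487685 (minus strand) for Sox17, chr11:106611943-106612192 (minus strand) for Pecam1 and chr13:113999617-113999866 (plus strand) for Esm1.
Npr3: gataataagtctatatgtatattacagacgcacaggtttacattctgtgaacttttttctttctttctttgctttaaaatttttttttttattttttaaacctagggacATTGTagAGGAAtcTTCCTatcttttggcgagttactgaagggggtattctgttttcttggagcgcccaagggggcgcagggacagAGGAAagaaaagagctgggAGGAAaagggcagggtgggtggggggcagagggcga
Sox17: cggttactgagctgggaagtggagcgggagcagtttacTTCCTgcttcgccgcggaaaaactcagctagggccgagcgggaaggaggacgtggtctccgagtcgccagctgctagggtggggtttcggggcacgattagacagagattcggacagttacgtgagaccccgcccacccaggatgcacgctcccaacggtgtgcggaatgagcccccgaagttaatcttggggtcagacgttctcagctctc
Pecam1: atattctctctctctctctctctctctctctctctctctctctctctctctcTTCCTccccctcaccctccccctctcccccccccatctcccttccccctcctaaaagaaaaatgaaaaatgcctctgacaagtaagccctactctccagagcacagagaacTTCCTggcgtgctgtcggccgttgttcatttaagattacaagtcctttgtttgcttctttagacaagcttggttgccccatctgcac
Esm1: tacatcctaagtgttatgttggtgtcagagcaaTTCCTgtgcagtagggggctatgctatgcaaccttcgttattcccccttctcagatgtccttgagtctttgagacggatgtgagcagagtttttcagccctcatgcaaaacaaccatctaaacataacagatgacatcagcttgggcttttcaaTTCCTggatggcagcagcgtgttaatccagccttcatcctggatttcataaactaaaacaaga
AGGAA was found 4 times before Npr3, 2 times before Pecam1, 2 times before Esm1 and 1 time before Sox17. Among the 10 genes, 9 held it in this window, Cldn5 being the exception, and 59.7% of 33200 windows of the same length before all genes held it. ACAAT was found 1 time before Npr3 and not before the other 3, and in 3 of 10 windows in all, against 29.5% of all windows. A match is a run of letters in this window and not a shown binding site.

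Compared per length, as FPKM, Cdh5 and Eng were the most abundant of the junction and receptor genes in all 3 control groups. Cdh5 stood at 24.6 ± 2.09 FPKM (SD, n = 4) in Mesp1Cre controls, 30.4 ± 4.12 (n = 3) in Mef2cAHF::Cre libraries labelled control and 25.9 ± 2.05 (n = 3) in Tnnt2::Cre controls. Eng followed at 21.2 ± 1.38, 21.3 ± 3.02 and 18.6 ± 1.81 FPKM. In Mesp1Cre controls the order went on with Npr3 (12.8 FPKM), Pecam1 (7.92), Emcn (7.12), Sox18 (5.42) and Tal1 (4.74), and ended with Cldn5 (0.571), Sox17 (0.409) and Esm1 (0.123). Neighbours whose ranges overlapped there were Cdh5 with Eng, each pair in the run from Pecam1 to Tal1, and the last 3.

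At E11.5 Tal1 stood higher in the order. It was the highest of the 10 in Tnnt2::Cre controls (30.7 ± 8.79 FPKM, overlapping Cdh5) and sixth at 9.65 ± 3.73 in the Mef2cAHF::Cre libraries labelled control. Emcn stood at 15.4 ± 3.2 FPKM in the latter and at 7.54 ± 0.562 in Tnnt2::Cre controls. Cldn5 stayed between 0.221 and 1.05 FPKM in every control library and rested on 8 to 38 reads. Values for Cldn5, Esm1 and Sox17 thus carry far larger counting error than those for the other 7. Among the 10 genes, exons of other genes overlap only those of Eng, over 4.78% of its exonic bases.

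**Figure D1:**
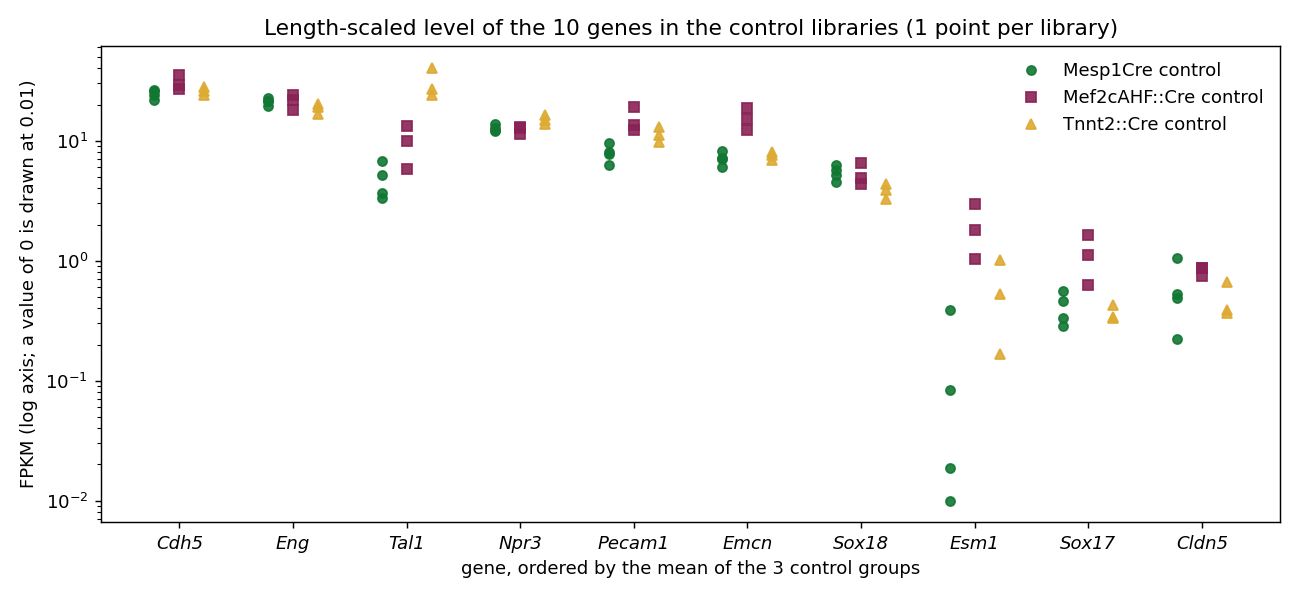
FPKM on a log axis for each of the 10 genes (x axis) in each control library of the 3 lines, 1 point per library, with the Esm1 value of 0 drawn at the bottom of the axis. Cdh5 and Eng lie near the top in all lines, Cldn5, Sox17 and Esm1 lie at 2.98 FPKM or below, and Tal1 spans from 3.33 FPKM in a Mesp1Cre control to 40.7 in a Tnnt2::Cre control.

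In Mesp1Cre hearts 3 of the 10 genes rose in mutants and none fell past the threshold of an adjusted p of 0.05. The genes that rose were Npr3, Sox17 and Pecam1, with at least 1 from each role (receptor, transcription factor, junction). Over all 15883 genes tested in this line 1821 passed, 6.17% of the genes higher and 5.29% lower. The log2 difference was above 0 for 8 of the 10, with a median of 0.34 against a median of -0.0018 over all genes. For 4 of the 10 (those 3 and Sox18) no mutant library lay within the range of the controls or the reverse, against 17.7% of all genes. In whole hearts, more endothelial cells and more RNA of these genes per cell cannot be told apart, and the same holds for fewer cells and less RNA per cell.

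Npr3, the clearance receptor, was measured at 94, 104, 86.6 and 89.9 CPM in control replicates 1 to 4 and at 125, 139, 148 and 162 CPM in mutant replicates 1 to 4. All 4 mutants were above all 4 controls. The rise was 1.53-fold, a log2 difference of 0.62 ± 0.09 (edgeR adjusted p 0.0014). The call held without any single library (edgeR adjusted p 8.66e-04 to 0.00736) and with erythroid marker level as a covariate (0.0145). That level, the mean log2 CPM of 14 erythroid markers, was 4.17 to 6.06 in mutants and 5.13 to 6.64 in controls. It was partly tied to genotype, as in the other lines. A call lost with this covariate thus cannot tell genotype and erythroid level apart.

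Sox17, the SOXF factor, was low in controls at 1.45, 2.01, 2.34 and 1.23 CPM and stood at 11.54, 4.82, 8.55 and 4.05 CPM in mutants. The highest control lay below the lowest mutant, although the mutants themselves spread widely. The difference was 4.11-fold, or 2.04 ± 0.37 on the log2 scale (edgeR adjusted p 0.0041). It passed without any single library, and with erythroid marker level as a covariate it was 1.37 with an edgeR adjusted p of 0.0775. Sox17 also marks foregut endoderm. The 9 foregut endoderm markers examined summed to 0.481 to 7.55 CPM in mutants and 1.26 to 25.1 CPM in controls, 2 of them were expressed well enough to be tested, and neither passed.

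Pecam1, the junction protein gene, stood at 29.2, 44.7, 34.7 and 36.5 CPM in controls and at 49.1, 45.8, 58.3 and 52.9 CPM in mutants. The groups did not overlap, but control replicate 2 lay just below mutant replicate 2. The rise was 1.42-fold, 0.51 ± 0.13 on the log2 scale (edgeR adjusted p 0.0283). The call was lost when control replicate 1, 3 or 4 or mutant replicate 3 or 4 was left out (edgeR adjusted p 0.0613 to 0.0788) and with erythroid marker level as a covariate (log2 difference 0.37, 0.251). Platelets and megakaryocytes also carry PECAM1. The 8 megakaryocyte markers summed to 50.91 to 227.46 CPM in mutants and 11.54 to 24.74 CPM in controls, with 3 of 7 tested markers higher (Pf4, Ppbp and Gp1ba), and their part in the rise of Pecam1 was not tested.

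Cdh5 and Sox18 had edgeR adjusted p of 0.0988 and 0.0974. Cdh5 ran from 91.8 to 110 CPM in controls and from 110 to 124 CPM in mutants, a log2 difference of 0.23 ± 0.08. Sox18 stood at 8.9, 7.85, 9.6 and 10.7 CPM in controls and 12.1, 14.7, 13.4 and 10.8 CPM in mutants, groups that did not overlap, with a log2 difference of 0.46 ± 0.17. Both passed when FPKM was fitted instead of counts, a fit in which all genes shifted upward. Their median log2 difference was 0.15 there, on log2(FPKM + 0.1), against -0.0018 on counts. Emcn differed by 0.17 ± 0.15 and Eng by 0.02 ± 0.13 on the log2 scale, both with overlapping groups. Mutant replicate 1 was the lowest library for both, at 34.1 CPM for Emcn and 60.6 CPM for Eng.

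Esm1, the sprouting front proteoglycan, rested on 5, 1, 21 and 0 reads in controls and 10, 2, 59 and 32 reads in mutants. The count of 0 allows up to 0.123 CPM, from 3 counts in that library. The log2 difference of 2.00 ± 1.08 did not pass (edgeR adjusted p 0.262), so a change of Esm1 was not detectable at this depth and spread. Cldn5 had 8 to 38 reads in controls and 7 to 35 in mutants, and a log2 difference of -0.44 ± 0.64.

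**Figure D2:**
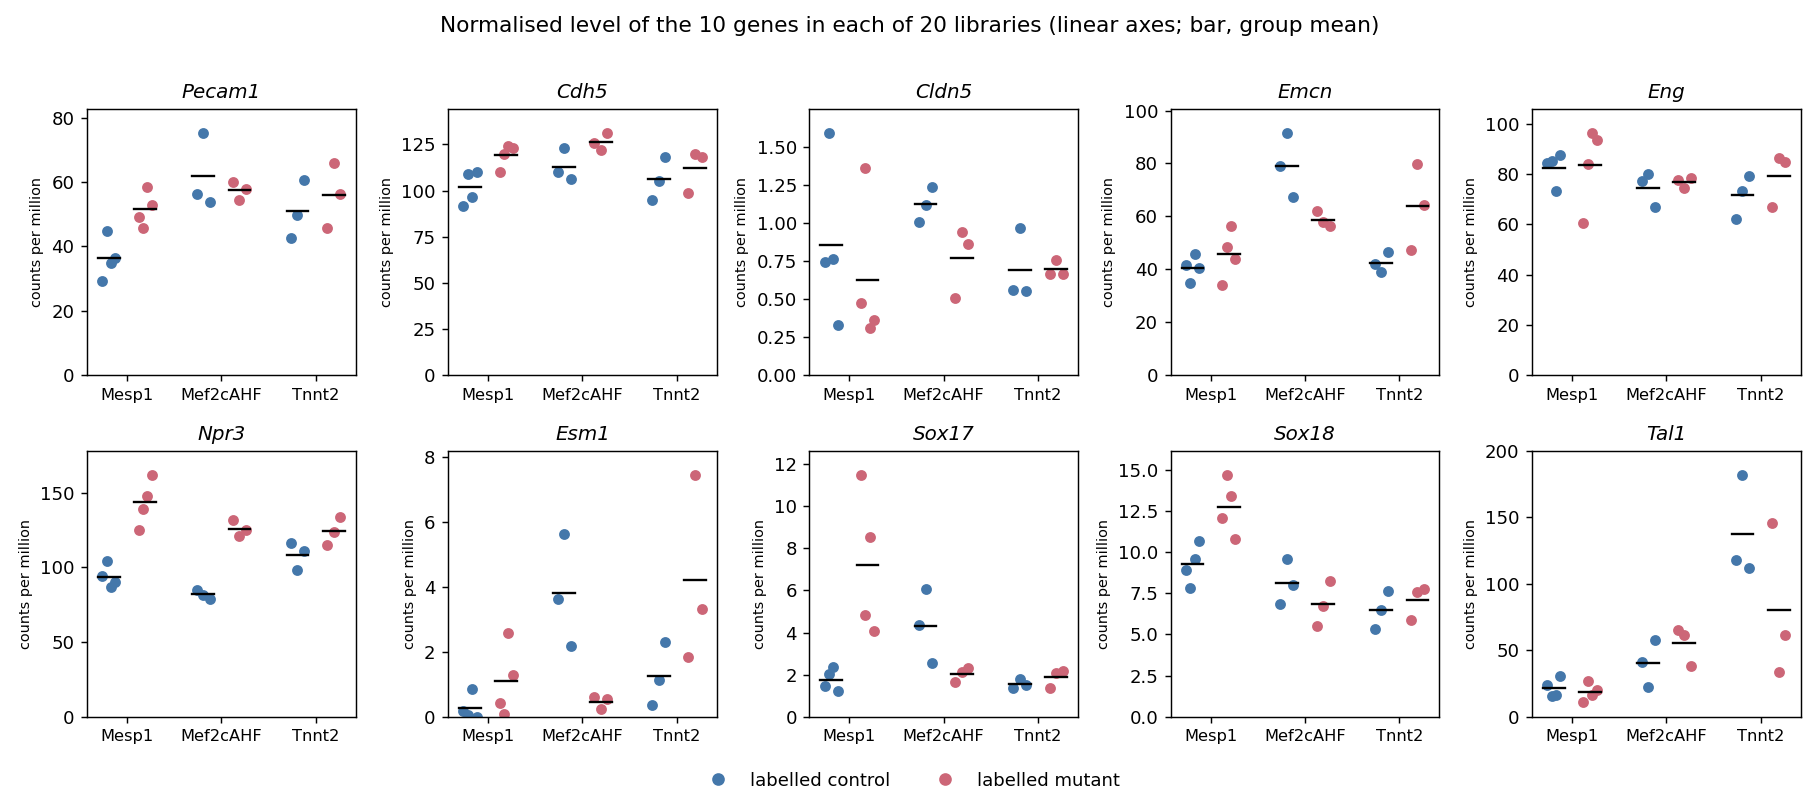
CPM after TMM scaling (y axis, linear, from 0) for each of the 10 genes, with 1 point per library and a bar at each group mean. Mesp1Cre mutants lie above all controls for Npr3, Sox17, Pecam1 and Sox18, and Mef2cAHF::Cre libraries labelled mutant lie above those labelled control for Npr3 and below them for Esm1, Sox17, Emcn and Cldn5.

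In Mesp1Cre Tal1 ran from 15.4 to 30.8 CPM in controls and from 10.7 to 27.2 CPM in mutants (log2 difference -0.22 ± 0.27, edgeR adjusted p 0.653). Its level tracked that of 14 erythroid markers, such as the globins and Klf1, a list that does not hold Tal1. In Tnnt2::Cre the mean log2 CPM of these markers was 9.61, 6.96 and 8.02 in mutant replicates 1 to 3, and Tal1 was at 146, 33.4 and 61.5 CPM in the same order. In Tnnt2::Cre controls the markers were at 9.48, 9.92 and 9.18 and Tal1 at 118, 182 and 112 CPM. Mutant replicate 1 thus lay among the controls for both measures.

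A similar pairing, with exceptions, was seen in the other lines. Among Mesp1Cre libraries the erythroid level was lowest in mutant replicate 1 (4.17) and highest in control replicate 4 (6.64), which were also the lowest and the highest for Tal1. In Mef2cAHF::Cre it was lowest in labelled control replicate 2 (5.76) and highest in labelled mutant replicate 2 (8.34), where Tal1 stood at 22.5 and 61.2 CPM. The highest Tal1 of that line was in labelled mutant replicate 1 (65.5 CPM at a marker level of 8.26). In Mesp1Cre, Tal1 was at 16.4 CPM in control replicate 3 (marker level 6.17) and at 27.2 CPM in mutant replicate 2 (6.06). With erythroid marker level as a covariate the sign of the Tal1 difference turned in every line, to 0.35 in Mesp1Cre, -0.38 in Mef2cAHF::Cre by the sample titles and 0.08 in Tnnt2::Cre, with no value past the threshold. Without Tnnt2::Cre mutant replicate 1, Tal1 was 1.53 lower in mutants on the log2 scale (-1.53, edgeR adjusted p 0.0133). The share of the Tal1 signal that came from blood cells was not tested.

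**Figure D3:**
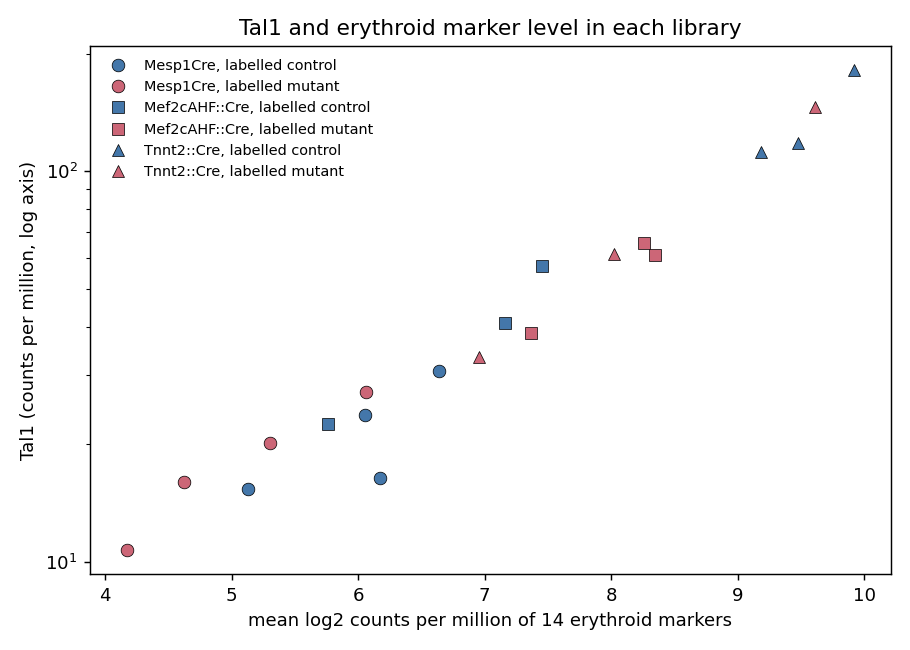
Tal1 in CPM (y axis, log scale) against the mean log2 CPM of 14 erythroid markers (x axis) in each of the 20 libraries, by line and label. Tal1 is mostly higher where erythroid signal is higher, from 10.7 CPM at a marker level of 4.17 to 182 CPM at 9.92.

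In Mef2cAHF::Cre samples 2 of the 10 genes passed, and they moved in opposite directions under either reading of the labels. Npr3 was higher and Esm1 lower in the libraries labelled mutant, and the column names would make Npr3 lower and Esm1 higher in mutants. Over all 16920 genes tested 2.85% passed, 1.81% higher and 1.04% lower by the titles. The groups did not overlap for 5 of the 10 genes, Npr3, Esm1, Emcn, Sox17 and Cldn5, against 24% of all genes. The median log2 difference of the 10 was -0.18 by the titles, against -0.0067 over all genes.

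Npr3 was at 132, 121 and 125 CPM in the libraries labelled mutant and at 85.1, 81.6 and 79.1 CPM in those labelled control. Libraries of each label lay close together and far from the other label. The difference by the titles was 1.54-fold, 0.62 ± 0.07 on the log2 scale (edgeR adjusted p 0.00273), and it passed without any single library and under every alternative run.

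Esm1 was at 0.619, 0.226 and 0.554 CPM in the libraries labelled mutant, from 17, 6 and 20 reads. In those labelled control it was at 3.63, 5.62 and 2.17 CPM, from 104, 156 and 56 reads. The labelled control libraries were thus 8-fold higher, and the log2 difference by the titles was -3.00 ± 0.44 (edgeR adjusted p 0.0127). The call was lost without labelled mutant replicate 1, 2 or 3 (0.0513 to 0.0687) and in a fit of all 6 groups together (0.221).

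Sox17 and Emcn lay on the same side as Esm1. Sox17 was at 1.64, 2.11 and 2.3 CPM in the libraries labelled mutant and 4.36, 6.06 and 2.55 CPM in those labelled control (log2 difference -1.10 ± 0.31, edgeR adjusted p 0.0999). Emcn was at 61.9, 57.9 and 56.5 CPM against 78.9, 91.4 and 67.3 CPM (-0.43 ± 0.11, edgeR adjusted p 0.0684). The groups did not overlap for either gene, and labelled control replicate 3 was the closest of the controls to the other group for both. Without that library both passed, at edgeR adjusted p of 0.0361 for Sox17 and 0.0276 for Emcn. Without labelled control replicate 2 the differences were -0.77 for Sox17 (0.174) and -0.31 for Emcn (0.0711). With erythroid marker level as a covariate they were -0.44 for Sox17 (edgeR adjusted p 0.597) and -0.25 for Emcn (0.411). That level was 7.36 to 8.34 in the libraries labelled mutant and 5.76 to 7.45 in those labelled control, so it was partly tied to the label.

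The other 6 members of the 10 did not pass in Mef2cAHF::Cre. Pecam1 ran from 54.4 to 60 CPM in the libraries labelled mutant and from 53.7 to 75.1 CPM in those labelled control, and the megakaryocyte markers summed to 60.9 to 116 against 237 to 594 CPM, with 6 of 8 lower by the titles. The log2 differences by the titles were -0.10 ± 0.12 for Pecam1, 0.16 ± 0.08 for Cdh5 and 0.04 ± 0.08 for Eng. They were -0.25 ± 0.18 for Sox18, 0.45 ± 0.30 for Tal1 and -0.54 ± 0.32 for Cldn5. Erythroid markers summed to 25900 to 49100 CPM in the libraries labelled mutant and to 7520 to 33000 CPM in those labelled control.

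In Tnnt2::Cre hearts none of the 10 genes passed the edgeR test, 2 of them had an unadjusted p under 0.05 (Emcn and Esm1), and DESeq2 called 1 (Emcn). Over all 17045 genes tested 0.293% passed in edgeR, 0.0763% higher and 0.217% lower, and DESeq2 called 368. The log2 difference was above 0 for 9 of the 10, with a median of 0.14 against 0.0037 over all genes. Only Emcn had groups that did not overlap, against 17.1% of all genes.

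Emcn, the surface sialomucin, was at 41.9, 38.9 and 46.7 CPM in controls and 47.4, 79.7 and 64.3 CPM in mutants. Mutant replicate 1 was the one next to the controls. The log2 difference was 0.59 ± 0.18 with an edgeR adjusted p of 0.263, by DESeq2 it was 0.58 (adjusted p 0.0496), and without mutant replicate 1 it was 0.76 (edgeR adjusted p 0.0102). With erythroid marker level as a covariate it was 0.18 (edgeR adjusted p 0.604). That level was 6.96 to 9.61 in mutants and 9.18 to 9.92 in controls, so it was partly tied to genotype. Esm1 was at 0.358, 1.14 and 2.3 CPM in controls and 1.83, 7.46 and 3.32 CPM in mutants, groups that overlapped (1.75 ± 0.66, edgeR adjusted p 0.356). Npr3 ran from 98.1 to 116 CPM in controls and from 115 to 134 CPM in mutants (0.20 ± 0.10, edgeR adjusted p 0.478).

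Log2 differences for the remaining genes in Tnnt2::Cre were 0.14 ± 0.16 for Pecam1, 0.08 ± 0.12 for Cdh5, 0.15 ± 0.13 for Eng, 0.28 ± 0.27 for Sox17, 0.13 ± 0.18 for Sox18 and 0.00 ± 0.34 for Cldn5. Tal1 was 0.77 ± 0.45 lower (-0.77, edgeR adjusted p 0.542). Mutant replicate 1 was the lowest mutant library for Pecam1, Cdh5, Emcn, Eng, Npr3, Esm1, Sox17 and Sox18 and the highest for Tal1. That library had a marker level of 9.61 on the erythroid scale above, and its summed megakaryocyte markers are the highest of the group, 815 CPM against a group median of 181.

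**Figure D4:**
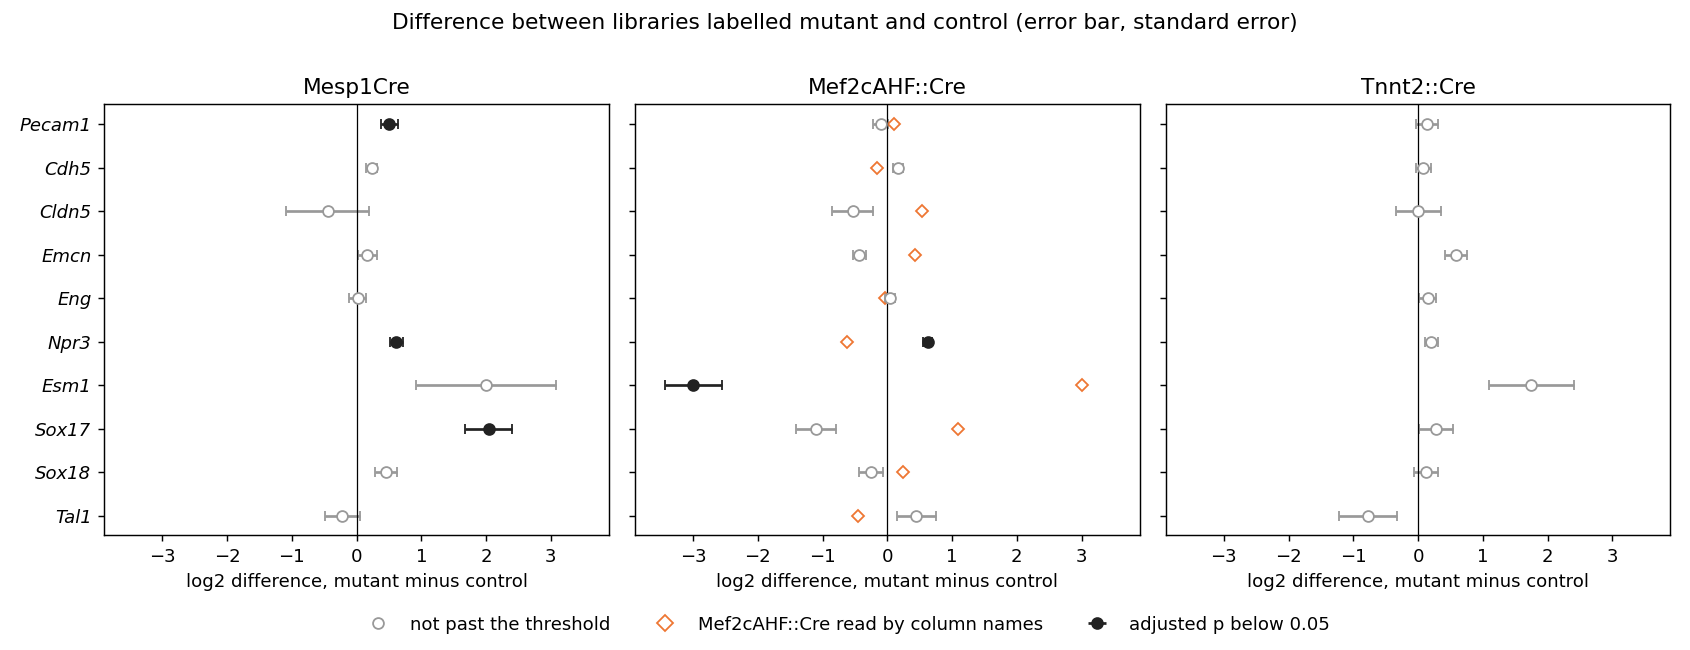
Log2 difference between libraries labelled mutant and control (x axis) for each of the 10 genes in the 3 lines, with the standard error as the error bar. Filled points passed the threshold, namely Npr3, Sox17 and Pecam1 in Mesp1Cre and Npr3 and Esm1 in Mef2cAHF::Cre, where open diamonds give the same values by the column names.

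Differences between lines were tested directly as interactions over 18391 genes. By the sample titles, the Mesp1Cre and Mef2cAHF::Cre effects differed for Sox17 by 3.12 ± 0.50 on the log2 scale (edgeR adjusted p 4.71e-04) and for Esm1 by 4.99 ± 1.33 (edgeR adjusted p 0.0193), both higher in Mesp1Cre, where 11.3% of all genes passed. Read by the column names, neither passed, and Npr3 did, with a difference of 1.22 ± 0.12 (edgeR adjusted p 8.40e-05, 1.63% of all genes). Under either reading at least 1 of the 10 genes thus passed, beside the shares of all genes just given. These 2 lines also differ in stage and in dissected tissue, which cannot be told apart from the Cre line. The Mesp1Cre and Tnnt2::Cre effects, whose labels are not in doubt, differed for none of the 10 in edgeR (3.04% of all genes), with 1.75 ± 0.50 for Sox17 (adjusted p 0.0608) and 0.40 ± 0.12 for Npr3 (adjusted p 0.0797) as the lowest adjusted p. There 2 of the 10 and 3524 of all 18391 genes had an unadjusted p under 0.05. DESeq2 called 2 of the 10 and 1242 of all genes. The Mef2cAHF::Cre and Tnnt2::Cre effects differed by the titles for Emcn, by -1.01 ± 0.24 (edgeR adjusted p 0.023, 3.19% of all genes). By the column names edgeR called 0 of all genes (0%, with 472 at an unadjusted p under 0.05 and 6 by DESeq2). There Npr3 had a difference of -0.82 ± 0.13 (adjusted p 0.0829), the only one of the 10 with an unadjusted p under 0.05, and DESeq2 called 1 of the 10.

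Whole control hearts of Tnnt2::Cre at E11.5 were also compared with those of Mesp1Cre at E9.0, a comparison in which stage and Cre line cannot be told apart. Pecam1 was higher at E11.5 by 0.59 ± 0.15 on the log2 scale (edgeR adjusted p 0.00417), Npr3 by 0.30 ± 0.09 (0.00859) and Tal1 by 2.76 ± 0.41 (2.80e-05). Over all genes 39.6% passed, 21.7% higher and 17.9% lower at E11.5. Erythroid markers summed to 5580 to 18300 CPM in the Mesp1Cre controls and to 99000 to 155000 CPM in the Tnnt2::Cre controls. The calls of these 3 genes held without any single library. Esm1 had a difference of 2.30 ± 0.94 (0.0595), which ran from 1.53 to 4.01 without each library in turn and passed without Mesp1Cre control replicate 3 (0.00869) or Tnnt2::Cre control replicate 1 (0.0354) and with all genes of at least 1 count (0.0194). Sox18 had a difference of -0.42 ± 0.18 (0.0705), which passed by DESeq2 (0.0467) and without Mesp1Cre control replicate 2 (0.0467) or Tnnt2::Cre control replicate 3 (0.0446). Cdh5, Eng, Emcn, Sox17 and Cldn5 had adjusted p of 0.19 or more.

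Among 38 further endothelial genes, such as receptors, ETS factors and surface proteins, 14 were higher in Mesp1Cre mutants and 1 lower, beside the 6.17% and 5.29% of all genes given above. Named by the lowest adjusted p, they were the adhesion receptor gene Eltd1 (24.5 ± 5.58 against 7.79 ± 0.908 CPM, SD, n = 4 each), the VEGF receptor genes Kdr (179 ± 12.1 against 107 ± 7.5 CPM) and Flt1 (139 ± 20.9 against 65.3 ± 8.82 CPM), and the SOXF factor gene Sox7 (55.9 ± 7.81 against 24.5 ± 4.3 CPM). The gene that fell was Cd34, by 0.58 on the log2 scale (-0.58, edgeR adjusted p 0.013), named after its value was seen. The median over the list was 0.35, against -0.0018 over all genes. The count of 14 was 11 to 16 without each library in turn, 8 with sex as a covariate and 7 with erythroid marker level as a covariate. Erythroid marker level was partly tied to genotype, as given above. Counting this list under the alternatives was added after the data were seen.

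By the titles, 3 of 37 further endothelial genes were higher in Mef2cAHF::Cre, namely Plvap, Ramp2 and Gata2 (log2 differences 0.76, 0.42 and 0.60), and Myct1 was lower (-0.71). The shares of all genes there were 1.81% higher and 1.04% lower. The count of 3 fell to 0 without labelled mutant replicate 1, 2 or 3 and was 5 without labelled control replicate 1 and 1 without labelled control replicate 3. None of 38 passed in Tnnt2::Cre by edgeR or by DESeq2, where 6 had an unadjusted p under 0.05, and 1 was higher without mutant replicate 1.

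Of 10 endocardial genes, 1 was higher and 3 were lower in Mesp1Cre mutants, beside 6.17% and 5.29% of all genes. Tmem100 rose by 1.07 ± 0.25 on the log2 scale, while Nrg1, the endocardial ligand for myocardial ErbB receptors, was at 9.46 ± 1.98 CPM in mutants against 16.1 ± 2.95 in controls, and Gpr126, an adhesion receptor gene, at 35.8 ± 9.76 against 55.5 ± 3.87 CPM. Cytl1 fell from 1.28 ± 0.993 to 0.0108 ± 0.0215 CPM, values that rest on few reads. Endocardial genes thus moved in both directions in the hearts in which Npr3 rose. In Mef2cAHF::Cre by the titles, Gpr126 (log2 difference 0.49) and Cytl1 (3.76) were higher and Edn1 lower (-0.88), beside 1.81% and 1.04% of all genes. Cytl1 was again low there, at 0.713 ± 0.106 CPM in the libraries labelled mutant against 0.0469 ± 0.0532 CPM. In Tnnt2::Cre none of 10 passed in edgeR, with 2 at an unadjusted p under 0.05 and 2 called by DESeq2 (Edn1 higher, Cytl1 lower).

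Tip cell genes are expressed at the front of growing vessels, as Esm1 is, and 12 were examined. Among all genes, 6.17% were higher in Mesp1Cre mutants and 1.04% were lower in Mef2cAHF::Cre by the titles. In Mesp1Cre mutants 4 of 12 were higher, namely Igfbp3 (54.7 ± 7.84 against 9.53 ± 2.35 CPM), Apln (11.2 ± 6.28 against 0.675 ± 0.164 CPM), Kcne3 (7.72 ± 6.5 against 0.102 ± 0.0971 CPM) and Adm (16.4 ± 5.35 against 4.86 ± 1.98 CPM). In Mef2cAHF::Cre libraries labelled mutant 3 of 12 were lower, with Pdgfb at 1.63 ± 0.573 against 5.23 ± 0.641 CPM, Kcne3 at 1.88 ± 0.331 against 9.53 ± 6.62 CPM and Apln at 1 ± 0.305 against 7.53 ± 5.7 CPM. Apln and Kcne3 passed in both lines, in opposite directions by the titles and both higher in mutants by the column names. DESeq2 called 4 lower and 1 higher of the 12 in Mef2cAHF::Cre by the titles. In Tnnt2::Cre none of 12 passed in edgeR, 4 had an unadjusted p under 0.05, DESeq2 called 2 higher (Kcne3 and Pdgfb), and the median log2 difference was 0.40.

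Among 15 arterial, venous and lymphatic genes tested in Mesp1Cre, the apelin receptor gene Aplnr (log2 difference 2.30 ± 0.51) and Flt4 (0.69 ± 0.17) were higher and none was lower. Of all genes in that line 6.17% were higher and 5.29% lower. Of 16 in Mef2cAHF::Cre, Nrp2 was lower (-0.70) and the connexin genes Gja5 (0.92) and Gja4 (0.77) were higher by the titles. The shares of all genes there were 1.04% lower and 1.81% higher. In Tnnt2::Cre none of 16 passed in edgeR, with 3 at an unadjusted p under 0.05 and 1 called by DESeq2 (Aplnr, lower). Of all 17045 genes there, 0.293% passed in edgeR and 368 by DESeq2.

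A list of 25 genes held partners, relatives or pathway members of some of the 10 proteins. Among them were catenins for VE-cadherin, BMP receptors and ligands for endoglin, natriuretic peptides for NPR3 and cofactors of TAL1. In Mesp1Cre 1 of 23 tested was higher (Bmpr2, 0.34 ± 0.08) and 2 were lower (Jup, plakoglobin, -0.49 ± 0.10, and the endoglin ligand gene Bmp10, -1.09 ± 0.26), counts near the 6.17% higher and 5.29% lower among all genes. By the titles, Jup (0.51) and Gata2 (0.60) were higher and Nppb lower (-0.83) in Mef2cAHF::Cre, beside 1.81% and 1.04% of all genes. In Tnnt2::Cre Nppb, a natriuretic peptide cleared by NPR3, rose from 69.4 ± 10.2 to 228 ± 84 CPM (log2 difference 1.72 ± 0.25, edgeR adjusted p 0.0323) as the only 1 of 24 past the threshold in edgeR. There 8 of the 24 had an unadjusted p under 0.05, and DESeq2 called 3 higher (Nppb, Nppa and Bmp10). Of all 17045 genes, 0.293% passed in edgeR and 368 by DESeq2.

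**Figure D5:**
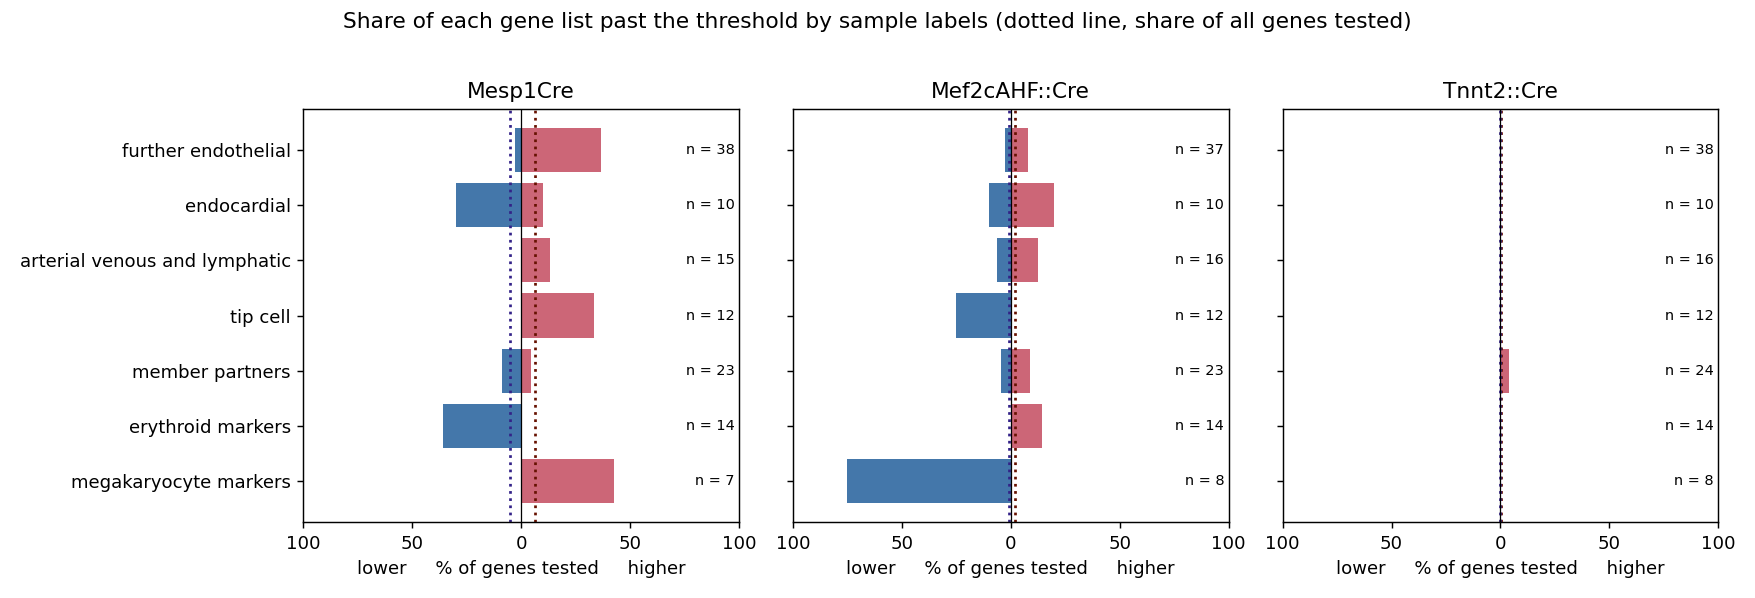
Percentage of the tested genes of 7 lists that were higher (right, red) or lower (left, blue) past the threshold by the sample titles, in the 3 lines, with the share over all genes as dotted lines. Further endothelial and tip cell genes lie to the right in Mesp1Cre with 14 of 38 and 4 of 12 higher, megakaryocyte markers lie to the right in Mesp1Cre (3 of 7) and to the left in Mef2cAHF::Cre (6 of 8), and in Tnnt2::Cre 1 of 24 partners passed.

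Markers of other cell types were counted in the same fits. In Mesp1Cre 5 of 14 erythroid markers were lower in mutants, with the embryonic globin genes Hbb-y and Hba-x at 1090 ± 604 and 2050 ± 1140 CPM against 3700 ± 1370 and 5320 ± 2450 CPM in controls. There, 1 of 5 macrophage markers was lower (Lyz2), 1 of 10 cardiomyocyte markers was higher and 1 lower (Ryr2 and Tnnc1), 1 of 7 epicardial markers was higher (Krt19) and 1 of 5 smooth muscle markers was lower (Cnn1). Of all genes in this line 6.17% were higher and 5.29% lower, so 1 called marker of a short list is not read as a change of that cell type. None of 6 cushion mesenchyme markers passed in edgeR or in DESeq2, with 1 at an unadjusted p under 0.05. The part of these cell types in the changes of the 10 genes was not tested.

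In Mef2cAHF::Cre, by the titles, 2 of 14 erythroid markers were higher (Hba-a1 and Hbb-b1) and 6 of 8 megakaryocyte markers lower, among them Ppbp at 28.5 ± 10.8 against 140 ± 64 CPM. Of all 16920 genes there, 1.81% were higher and 1.04% lower in edgeR, and DESeq2 called 1103. None of 10 macrophage markers passed in edgeR (5 at an unadjusted p under 0.05, 3 by DESeq2), nor of 10 cardiomyocyte (5 and 3), 8 epicardial (4 and 2), 5 smooth muscle (1 and 1), 6 cushion mesenchyme (1 and 0) or 4 tested foregut endoderm markers (0 and 0). In Tnnt2::Cre no marker of 14 erythroid (0 at an unadjusted p under 0.05, 0 by DESeq2), 8 megakaryocyte (0 and 0), 10 macrophage (5 and 0), 10 cardiomyocyte (1 and 0), 8 epicardial (3 and 1), 5 smooth muscle (2 and 1), 6 cushion mesenchyme (3 and 0) or 2 tested foregut endoderm markers (0 and 0) passed in edgeR. Of all 17045 genes there, 0.293% passed in edgeR and 368 by DESeq2. The shares of all genes at an unadjusted p under 0.05 within a line are not given here, so those counts have no background beside them.

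The genes whose variation between libraries was most like that of each member were found over 20 libraries and 9187 genes, after the mean of each of the 6 groups was subtracted from log2 CPM. Libraries of a group differ in depth and in tissue composition, such as erythroid marker level (6.96 to 9.61 in Tnnt2::Cre mutants). The correlations can reflect such differences and are given as descriptions. Pecam1 was most like Cd93 (r = 0.916), Col4a2 (0.906) and Sox7 (0.901), and Cdh5 was most like Col4a2 (0.884), Pecam1 (0.868) and Creb3 (0.832). Emcn was most like Mcam (0.911), Itm2c (0.878) and Phldb2 (0.862). Tal1 was close to the carbonic anhydrase gene Car2 (0.971) and to Psme3 (0.97).

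For the other members near genes were Marveld1, Txndc5 and Synpo2l for Eng (0.876, 0.857 and 0.853) and Wwc2 and Tmem2 for Npr3 (0.857 and 0.837). For Esm1 they were Cpe, Bgn and Ppfibp1 (0.888, 0.834 and 0.824), and for Sox17 they were Cdk10, Cdon and Baiap2l1 (0.865, 0.835 and 0.827). Sox18 was nearest to Trim32, Stx6 and Slc38a4 (0.806, 0.778 and 0.768), and Cldn5 to Fam168b, Col27a1 and Tead2 (0.858, 0.837 and 0.83).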

How the data were processed

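RNA was sequenced from 20 embryonic mouse heart samples. Per the labels and methods, the authors aligned reads to mm9 (TopHat2 2.0.8b is named in the submitters' processing notes) and counted them per gene with featureCounts, whose version and use of strand are not given in the sources used here. The deposited counts are not normalized, and the deposited FPKM were computed by the authors with USeq 8.6.4 from reads, gene length and library total. The library kit differs between the labels (NuGEN Ovation) and the methods (TruSeq), and one protocol text gives E11.5 for all samples where the labels of Mesp1Cre give E9.0. Another 20 columns of variance-corrected values were not used.

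Counts were fitted for each line in edgeR 4.0.16 (R 4.3.3) after filterByExpr and TMM scaling, with the quasi-likelihood F test and Benjamini-Hochberg adjustment over all genes tested. The threshold was an adjusted p of 0.05, and standard errors were derived from the log2 difference and the F statistic. All CPM use TMM-scaled library sizes. Differences between lines and stages came from a fit of 6 groups. Alternatives were DESeq2 1.42.0 size factors and Wald test, all genes with at least 1 count, limma 3.58.1 on log2(FPKM + 0.1) and log2(FPKM + 1), the 6-group fit, a replicate block, erythroid marker level as a covariate, hemoglobin genes left out and each library left out. Sex, read from 4 Y-linked genes at a summed level of at least 10 CPM, was added as a covariate after the data were seen. It gave 4 of 4 male mutants and 2 of 4 male controls in Mesp1Cre, 0 of 3 and 1 of 3 in Mef2cAHF::Cre, and 1 of 3 and 2 of 3 in Tnnt2::Cre. Limits and totals cover counting error only. The edgeR step was tested on simulated data.

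The members and the 16 gene lists were chosen with earlier results of these data known. Named genes are the 10 members, the targeted gene, up to 4 genes per list and line with the lowest adjusted p past the threshold, and the 3 genes nearest to each member among genes tested in all lines whose average log2 CPM reached 3, of which 2 are not reported here. Positions are from the deposited table, exons from GENCODE vM1 and sequence from the mm9 genome, counted from 1. The ChIP data of the study were not analysed here.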

Additional observations from a re-analysis of the deposited data

Results flagged for a closer look

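The tests of the difference between lines called Esm1, Sox17 and Emcn under the sample titles and Npr3 alone under the column names, readings that exclude each other. By the titles, the Mesp1Cre effect exceeded the Mef2cAHF::Cre effect by 4.985 on the log2 scale for Esm1 and by 3.122 for Sox17. The edgeR adjusted p for Sox17 stayed between 1.95e-04 and 0.00292 without each library in turn. For Esm1 it was above 0.05 without Mef2cAHF::Cre labelled control replicate 2 (0.0554), labelled mutant replicate 2 (0.0584) or Mesp1Cre mutant replicate 3 (0.0503). By the column names, Npr3 differed by 1.218, with an edgeR adjusted p between 2.90e-05 and 7.48e-04 without each library. The Mef2cAHF::Cre and Tnnt2::Cre effects on Emcn differed by -1.0129 by the titles, and the call was lost in 6 of the 12 fits that left out a library (Mef2cAHF::Cre labelled control 2, labelled mutant 2 and 3, and Tnnt2::Cre control 1 and 2 and mutant 2), at edgeR adjusted p of 0.0587 to 0.0747.

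Among 20 groups of 4 libraries that were examined for a library standing apart, 1 did. Cldn5 in Mesp1Cre mutant replicate 2 was at 1.36 CPM (35 reads), while the other 3 mutants held 7 to 11 reads. Chance gives about 1 in 20.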

How the results depend on the processing

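Npr3 passed in Mesp1Cre and Mef2cAHF::Cre under every alternative run for these lines. In Mesp1Cre, 5 members passed instead of 3 on log2(FPKM + 0.1) and on log2(FPKM + 1) (Cdh5 and Sox18 were added) and 1 with erythroid marker level as a covariate. In Mef2cAHF::Cre, 4 instead of 2 passed with DESeq2 and with all genes of at least 1 count (Emcn and Sox17 were added), 1 in the 6-group fit and 1 to 4 without each library. In Tnnt2::Cre, 1 instead of 0 passed with DESeq2 and 0 to 2 without each library. Counts over all genes moved in the same fits. In Mesp1Cre they were 1821 in the reported fit, 3593 in the 6-group fit, 463 with the erythroid and 899 with the sex covariate, and 1052 to 2161 without each library. In Mef2cAHF::Cre they were 482, then 1103 with DESeq2, 1311 with all genes of at least 1 count, 291 and 253 on FPKM (pseudocounts 0.1 and 1), 129 in the 6-group fit, 218 with the erythroid covariate and 75 to 662 without each library. In Tnnt2::Cre they were 50, then 368, 120, 22, 19, 82 and 117 in the same order of alternatives, 17 with sex, 28 with the replicate block and 4 to 896 without each library. The cause was not tested. FPKM are not scaled by TMM: the median of all genes moved to 0.15, -0.13 and 0.11 in the 3 lines (pseudocount 0.1), and the share lower among called genes from 46.2% to 15% in Mesp1Cre, 36.5% to 61.9% in Mef2cAHF::Cre and 74% to 68.2% in Tnnt2::Cre.

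For differences between lines, Mesp1Cre against Tnnt2::Cre called 0 members and 559 genes, 2 members and 1242 genes with DESeq2, 1 member with all genes of at least 1 count, and 0 to 1 members and 167 to 1037 genes without each library. Mesp1Cre against Mef2cAHF::Cre gave 1 to 3 members and 1225 to 2471 genes by the titles without each library (2 and 2076 with all). By the column names it gave 299 genes, 779 with DESeq2, 462 with all genes of at least 1 count and 39 to 637 without each library. Mef2cAHF::Cre against Tnnt2::Cre by the titles gave 1 member and 586 genes, 3 and 1035 with DESeq2, 2 members with all genes of at least 1 count, and 0 to 3 members and 295 to 1031 genes without each library. By the column names it gave 0 and 0, 1 member and 6 genes with DESeq2, 1 and 9 with all genes of at least 1 count, and 0 to 1 members and 0 to 2 genes without each library.

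Directions that turned belonged to values that did not pass. With the erythroid covariate they were Tal1 in all lines (0.35 in Mesp1Cre, -0.38 in Mef2cAHF::Cre, 0.0757 in Tnnt2::Cre), Pecam1 (0.18) and Sox18 (0.0753) in Mef2cAHF::Cre, and Pecam1 (-0.15), Cdh5 (-0.0737), Eng (-0.0495) and Sox18 (-0.0853) in Tnnt2::Cre. Eng in Mesp1Cre turned to -0.0029 in the 6-group fit, -0.002 with the replicate block and -0.0414 with sex, and in Mef2cAHF::Cre to -0.0874 and -0.0841 on FPKM. With sex, Cldn5 in Mesp1Cre was 0.22 and Pecam1 in Mef2cAHF::Cre 0.0613, and with DESeq2 Cldn5 in Tnnt2::Cre was -0.0005. Without each library, ranges that crossed 0 were -1.15 to 0.0332 for Cldn5 and -0.0511 to 0.15 for Eng in Mesp1Cre, -0.19 to 0.0645 for Pecam1 and -0.0277 to 0.10 for Eng in Mef2cAHF::Cre, -0.14 to 0.32 for Cldn5 and -0.0022 to 0.26 for Sox18 in Tnnt2::Cre, and -0.52 to 0.26 for Cldn5 and -0.22 to 0.0779 for Sox17 between stages. Correlations between same-numbered libraries were low (r of -0.032 to 0.086 in Mesp1Cre, -0.015 to 0.177 in Mef2cAHF::Cre and -0.036 to 0.06 in Tnnt2::Cre). Such values do not show whether same-numbered libraries shared a litter or batch. The replicate block changed no member's call. Under it 1384 genes were called for Mesp1Cre (1821 in the reported fit), 517 for Mef2cAHF::Cre (482) and 28 for Tnnt2::Cre (50). Where leaving out a library leaves few samples, edgeR pools the spread over the rest. Depth limits Cldn5, Esm1 and Sox17 most.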
